A study of Mus musculus with 12 samples.

Results

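The transcripts of the mouse mitochondrial genome were followed across 3 Dkk3-null pancreatic tumor cell lines, untreated or treated with recombinant DKK3 protein (rDKK3). The members are all rows of the deposited count table whose gene symbol begins with mt-, which gave 37 of 57278 genes. They comprise 13 mRNAs, 2 rRNAs and 22 tRNAs, and each class is described separately. All 37 lie at the same coordinates on chromosome M in the GENCODE annotation of GRCm39 used here.

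The cells are the lines DDKC_9750, DDKC_9790 and DDKC_9804, cultured from endpoint pancreatic tumors of mice that lack Dkk3 (Dkk3-/-) and carry Ptf1a Cre/+. Cre is driven from Ptf1a, a gene of pancreatic acinar cells, and the loss of Dkk3 is carried by untreated and treated cells alike. Each line is a culture from a tumor, and 2 libraries were made for each line and condition, 12 in all. RNA was sequenced as 50-base read pairs from a directional (strand-keeping) library, and the authors deposited raw counts per gene. Each pair of libraries holds 1 with a lower and 1 with a higher library number in its label, called the lower and the higher series here. Nothing in the sources says that the libraries of a pair came from separate cultures, so their counts were summed, and the lines served as the 3 replicates. With the line in the model, the p-values from the 6 summed samples therefore rest on how unequally these 3 lines responded to treatment.

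Library totals lay between 3822987 and 24541083 counts, with a median of 14250180 for untreated and 6579895.5 for rDKK3 cells. In each line the summed rDKK3 sample was the shallower one. Dkk3, the targeted gene, had 0 counts in 11 libraries and 1 count in 1 library. The keratins Krt8, Krt18, Krt19 and Krt7 and the epithelial genes Sox9 and Cdh1 ranged from 113 to 3397 CPM (counts scaled by the library total), whereas Epcam reached at most 2.12 CPM. The leukocyte markers Ptprc, Cd3e, Adgre1 and Lyz2 reached at most 0.101 CPM. Of the other cell type markers, the acinar genes Ptf1a and Cpa1 had 0 counts and the fibroblast genes Dcn and Lum at most 0.101 CPM, whereas Kdr, Cela1 and Col1a1 reached 17.3, 12.2 and 11.7 CPM. The markers of tissues rich in mitochondria, Myh6, Ckm and Ucp1, reached at most 0.0819 CPM. Of 9 listed RNAs without a poly(A) tail, Rmrp, Terc and Rn7s2 had 0 counts and Rn7s1 and Vaultrc5 at most 2, whereas Rn7sk reached 6.06 CPM, Rny3 2.36, Rny1 1.77 and Rpph1 1.21. Whether the libraries were made by poly(A) selection or by rRNA depletion is not given in the sources used here, and levels of rRNAs and tRNAs are not levels of those RNAs in the cell.

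The mitochondrial genome is a small circular DNA that is present in many copies per cell and encodes subunits of respiratory chain complexes I, III and IV and of the ATP synthase, together with the rRNAs and tRNAs needed to translate them. Both strands are transcribed into long polycistronic RNAs, and tRNAs that punctuate the genes are cut out to release the mRNAs and rRNAs, most of which receive a short poly(A) tail. Pieces of mitochondrial DNA have also been inserted into the nuclear chromosomes, where they are called nuclear mitochondrial segments, and short reads from such a piece and from the mitochondrial genome can be identical.

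One such piece is nearly identical to a long stretch of the mitochondrial genome. On chromosome 1 of GRCm39, chr1:24650616-24655265 on the minus strand aligned with chrM:6394-11042 over 4650 positions at 99.957% identity. The alignment held 2 differences. It covers mt-Co2, mt-Atp8, mt-Atp6, mt-Co3, mt-Nd3 and mt-Nd4l wholly, 479 of the 1545 bases of mt-Co1 and 876 of the 1378 bases of mt-Nd4. The tRNAs mt-Ts1, mt-Td, mt-Tk, mt-Tg and mt-Tr also lie wholly inside it. The first 60 bases of mt-Co2 (chrM:7013-7072) are shown because the same letters stand in the nuclear genome at chr1:24654587-24654646, minus strand:
mt-Co2, first 60 bases: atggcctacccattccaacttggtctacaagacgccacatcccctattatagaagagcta

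The differences are shown with their flanking bases because they are the only positions that separate the mitochondrial genome from the copy in the reference. The first lies at the start of mt-Nd3 (chrM:9431-9491, chr1:24652168-24652228), with the differing base in capitals:
chrM, at mt-Nd3: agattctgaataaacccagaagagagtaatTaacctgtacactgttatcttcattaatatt
chr1 copy: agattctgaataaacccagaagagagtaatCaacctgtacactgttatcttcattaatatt

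The second lies in mt-Tr, the tRNA for arginine (chrM:9791-9858, chr1:24651800-24651868), where a run of A differs in length. The run is in capitals:
chrM, at mt-Tr: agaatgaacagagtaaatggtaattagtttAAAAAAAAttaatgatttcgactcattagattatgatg
chr1 copy: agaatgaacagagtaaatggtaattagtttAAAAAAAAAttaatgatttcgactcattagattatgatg

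The 6 mRNAs wholly inside the copy had between 41 and 441 counts each over all 12 libraries, and the 5 with no base inside it had between 25613 and 166969. The partly covered mt-Co1 and mt-Nd4 had 570965 and 52767 counts. Per kilobase of gene, the 6 covered mRNAs ranged from 0.678 to 9.14 CPM over the 6 summed samples and the other 7 from 177 to 5103 CPM, so the ranges did not overlap. Of all 50-base windows in a gene, the length of 1 read, 100% occurred exactly elsewhere in the nuclear genome for mt-Co2, mt-Atp8, mt-Atp6, mt-Co3 and mt-Nd4l, 99.0% for mt-Nd3, 62.2% for mt-Nd4 and 51.1% for mt-Co1. For mt-Nd2, mt-Nd5 and mt-Rnr2 the shares were 8.29%, 7.61% and 6.13%, and for mt-Nd1, mt-Nd6, mt-Cytb and mt-Rnr1 they were 0. Of the tRNAs, mt-Tw, mt-Tn, mt-Ty, mt-Ts1, mt-Td, mt-Tk, mt-Tg, mt-Th and mt-Te had 100% of windows elsewhere in the nuclear genome, mt-Tc 17.6%, mt-Tr 10.5% and mt-Ta 5.0%, and the other 10 had 0. The counts of the 6 covered mRNAs and of these 9 tRNAs are those left after alignment to more than 1 identical or near-identical place, and are not given as levels of these RNAs.

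**Figure D1:**
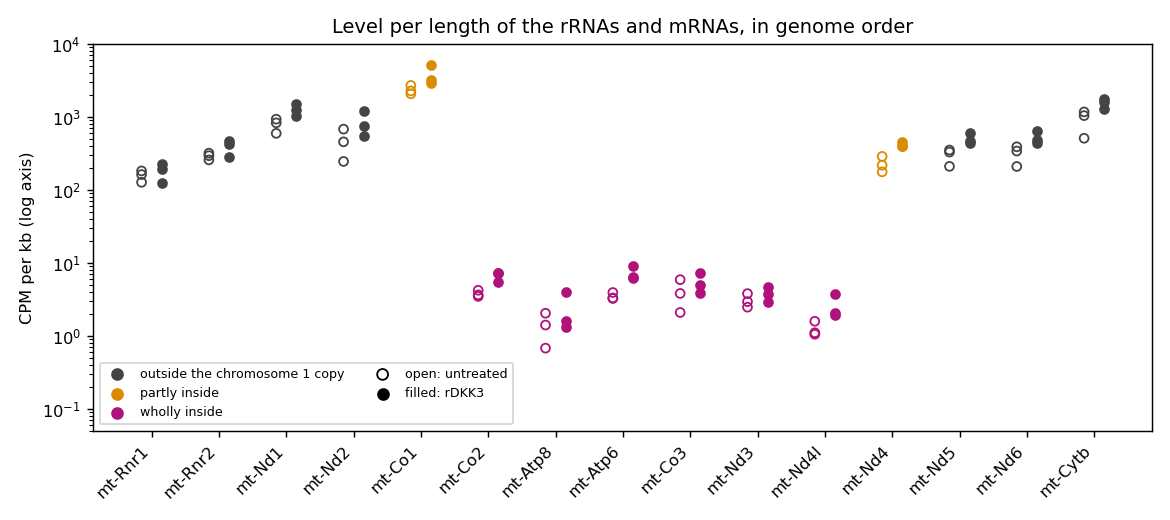
CPM per kilobase (log axis) of the 2 rRNAs and 13 mRNAs in genome order, each point 1 summed sample (open, untreated; filled, rDKK3), coloured by position relative to the chromosome 1 copy. The 6 mRNAs wholly inside the copy lie between 0.678 and 9.14, and every other gene lies at or above 124.

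The nuclear copy holds 7 annotated genes, and 5 of them match an mRNA wholly inside it. Gm28661, the copy of mt-Co2, had 424 counts beside 419 for mt-Co2. Atp6-ps had 622 beside 422 for mt-Atp6, and Gm28437, the copy of mt-Co3, had 364 beside 441. Gm28438 had 100 beside 152 for mt-Nd3, and Gm10222 had 32 beside 68 for mt-Nd4l. The other two, over the partly covered genes, had far fewer counts than the mitochondrial gene. Gm29216 had 464 beside 570965 for mt-Co1, and Gm28439 had 262 beside 52767 for mt-Nd4. Values for these 6 mRNAs, and for the tRNAs with every window in the nuclear genome, are uncertain, because reads from a gene and its copy cannot be told apart.

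The pair mt-Atp8 and mt-Atp6, subunits of the ATP synthase membrane part, also share bases with each other. Their overlap (chrM:7927-7969) is in capitals in the stretch chrM:7907-7989, shown because a fragment over it touches both genes and was then not counted for either:
mt-Atp8 and mt-Atp6: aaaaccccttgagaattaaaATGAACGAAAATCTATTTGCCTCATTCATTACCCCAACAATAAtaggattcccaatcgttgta

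Among the mRNAs not wholly inside the copy, mt-Co1, the catalytic subunit of complex IV, had the highest level per length, with a median of 2818 CPM per kilobase over the 6 summed samples (range 2077 to 5103). mt-Cytb, the mitochondrial subunit of complex III, followed with 1230 (510 to 1747). The complex I subunit mt-Nd1 had 978 (596 to 1506) and mt-Nd2 had 616 (245 to 1221). Below them stood mt-Nd6 with 412, mt-Nd5 with 395 and mt-Nd4 with 341, and then the rRNAs mt-Rnr2 with 307 and mt-Rnr1 with 172. The ranges of mt-Co1 and mt-Cytb did not overlap, nor did those of mt-Rnr2 and mt-Rnr1, while every other neighbouring pair of these 9 genes overlapped. The values of mt-Co1 and mt-Nd4 are per length over all bases, including those shared with the copy, so their places in this order are uncertain.

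mt-Nd6 (chrM:13552-14070) is the only mRNA on the minus strand, and its neighbour mt-Nd5 (chrM:11742-13565) is on the plus strand. Their ratio per length was 1.11, 0.997 and 1.03 in untreated cells of lines DDKC_9750, DDKC_9790 and DDKC_9804 and 1.05, 1.05 and 0.993 with rDKK3. The counts per length of these 2 genes, on opposite strands, were thus nearly equal in all 6 samples. The ratio of mt-Rnr2 to mt-Rnr1, the large and the small subunit rRNA, ranged from 1.75 to 2.26.

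The comparison of rDKK3 with untreated cells asks what extracellular DKK3 changes in tumor cells that lack it. The 13 mRNAs took 0.723%, 0.633% and 0.723% of all counts in untreated cells of lines DDKC_9750, DDKC_9790 and DDKC_9804, and 1.12%, 1.29% and 1.02% with rDKK3. The share was 0.693% ± 0.0522 (SD, n = 3 lines) untreated and 1.14% ± 0.134 with rDKK3, and the groups did not overlap. The mean difference was 0.72 ± 0.27 on the log2 scale (SD, n = 3), a fold of 1.65, with 1.41 in the smallest and 2.04 in the largest line. A two-sided exact sign-flip permutation test gave p = 0.25, which is the smallest value that 3 pairs allow.

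The 2 rRNAs took 0.0621%, 0.0678% and 0.0529% of counts in untreated cells and 0.0966%, 0.0848% and 0.0562% with rDKK3. The fold was 1.27 on average, the groups overlapped, and line DDKC_9804 differed by 1.06-fold only. Without line DDKC_9750 the mean log2 difference of the rRNA share was 0.205 in place of 0.349. The 22 tRNAs took 0.00221%, 0.0015% and 0.0013% untreated and 0.00288%, 0.00243% and 0.00134% with rDKK3, a mean fold of 1.3. Without line DDKC_9790 its mean log2 difference was 0.214 in place of 0.375. Both classes were higher in 3 of 3 lines, each with an exact permutation p = 0.25. The 95% Wilson intervals of single shares were at most 0.585% of the value wide on either side for mRNAs, 2.36% for rRNAs and 15.3% for tRNAs. These intervals cover counting error only, take each count as independent and leave out the spread between lines. The study's methods name no molecular identifiers.

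**Figure D2:**
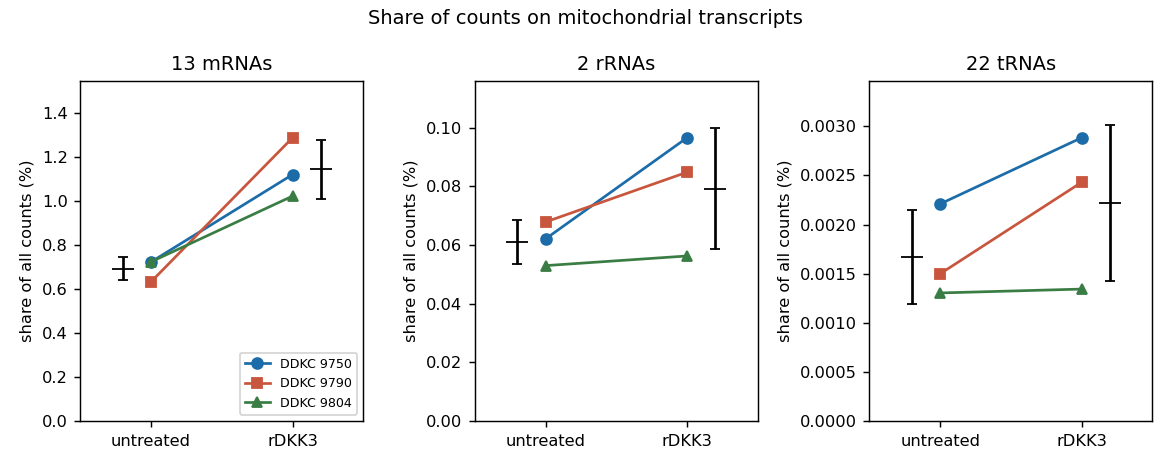
Share of all counts (%, axes from 0) on the 13 mRNAs, 2 rRNAs and 22 tRNAs in each summed sample, with lines joining untreated and rDKK3 cells of a line and black marks giving the mean ± SD over 3 lines. The mRNA share is at most 0.723% in untreated and at least 1.02% in treated cells, and the rRNA and tRNA shares of the 2 conditions overlap.

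By gene, all 7 mRNAs that are not wholly covered by the copy were higher with rDKK3 in every line. mt-Nd2 had 473, 255 and 706 CPM in untreated cells of lines DDKC_9750, DDKC_9790 and DDKC_9804 and 785, 573 and 1268 CPM with rDKK3. The conditions overlap across lines, since untreated line DDKC_9804 exceeded treated line DDKC_9790, but each line was higher with treatment. The fitted log2 fold change was 0.88 ± 0.13 (SE), with an unadjusted p = 0.000981 in edgeR's quasi-likelihood test and an adjusted p of 0.597.

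mt-Co1 had 3514, 4176 and 3209 CPM untreated and 4988, 7884 and 4532 CPM with rDKK3, with no overlap between conditions. Its log2 fold change was 0.61 ± 0.15 (adjusted p = 0.597, edgeR). mt-Cytb had 1193, 584 and 1340 CPM untreated and 1998, 1476 and 1849 CPM with rDKK3, also without overlap, and differed by 0.82 ± 0.20 (adjusted p = 0.597, edgeR).

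Among the other complex I subunits, mt-Nd1 had 892, 570 and 794 CPM untreated and 1442, 1203 and 981 CPM with rDKK3. mt-Nd4 had 300.1, 243 and 397 CPM untreated and 544, 624 and 557 CPM with rDKK3. For both, the lowest treated sample lay above the highest untreated one. mt-Nd5 had 642, 383 and 602 CPM untreated and 1100.0, 849 and 798 CPM with rDKK3, and the minus-strand mt-Nd6 had 202, 109 and 177 CPM untreated and 328, 253 and 225 CPM with rDKK3. These also did not overlap. The log2 fold changes were 0.66 for mt-Nd1, 0.87 for mt-Nd4, 0.75 for mt-Nd5 and 0.73 for mt-Nd6, each with an SE between 0.17 and 0.19 and an adjusted p of 0.597 in edgeR's test.

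The rRNA values differed by smaller amounts. mt-Rnr2 had 466, 504 and 408 CPM untreated and 751, 664 and 444 CPM with rDKK3, with overlap, and a log2 fold change of 0.37 ± 0.16 (adjusted p = 0.623, edgeR). mt-Rnr1 had 155, 174 and 121 CPM untreated and 214, 185 and 118 CPM with rDKK3, a log2 fold change of 0.14 ± 0.15 (adjusted p = 0.793, edgeR). Line DDKC_9804 was slightly lower for mt-Rnr1. Without a line, the log2 fold change ranged from 0.212 to 0.514 for mt-Rnr2 and from -0.0218 to 0.248 for mt-Rnr1.

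Of the mRNAs inside the copy, mt-Co2 had 2.88, 2.37 and 2.49 CPM untreated and 4.94, 5.04 and 3.68 CPM with rDKK3, and mt-Atp6 had 2.67, 2.25 and 2.21 CPM untreated and 4.34, 6.22 and 4.18 CPM with rDKK3. Their log2 fold changes were 0.78 ± 0.24 and 1.00 ± 0.26 (adjusted p = 0.597 for both, edgeR). mt-Co3, mt-Nd4l and mt-Nd3 gave 0.48, 0.98 and 0.29, and mt-Atp8 did not pass the filter on low counts. Without a line, mt-Nd4l ranged from 0.581 to 1.37 and mt-Nd3 from -0.00536 to 0.584. The values of all mRNAs inside the copy are uncertain for the reason given above.

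Over all members, edgeR's test on the summed samples called none of the 23 tested at an adjusted p under 0.05, and 1 of 15214 genes (0.00657%). At an unadjusted p under 0.05 it gave 9 of the 23 members, all higher with rDKK3, where 3.17% of all genes were higher and 5.13% lower. Those 9 were mt-Nd1, mt-Nd2, mt-Co1, mt-Co2, mt-Atp6, mt-Nd4, mt-Nd5, mt-Nd6 and mt-Cytb. DESeq2 on the same samples called 5 members, mt-Nd2, mt-Co1, mt-Nd4, mt-Nd5 and mt-Cytb, all higher, where it called 27 of 15214 genes (0.177%) higher. The median log2 fold change was 0.66 over the members tested and -0.01 over all genes tested. Of the 23 members, 13 were higher in all 3 lines, against 14.7% of all genes. The members share a genome, precursor RNAs and libraries, and these counts are a description.

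When the 12 libraries were tested as if each were a separate culture, with the line in the model, edgeR called 9 of 21 members, all higher, where 7.95% of genes were called higher. These were mt-Rnr2, mt-Nd1, mt-Nd2, mt-Co1, mt-Nd4, mt-Nd5, mt-Nd6, mt-Cytb and mt-Tp. Over all genes the libraries of a pair differed by no more than sampling noise once a shift between series was allowed for. The mean Poisson deviance per degree of freedom was then 0.769 over 12979 genes and 1.40 over the 7 mRNAs not wholly inside the copy. These calls may therefore count 1 culture more than once.

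In bulk RNA, more mitochondrial RNA per cell, less nuclear RNA per cell and a change in the cells present cannot be told apart. Other measures differed between the conditions too. The nuclear-retained RNA Malat1 had 488, 978 and 552 CPM untreated and 685, 1419 and 2292 CPM with rDKK3, and Neat1 had 198, 171 and 406 CPM untreated and 455, 345 and 594 CPM with rDKK3. Both were higher in all 3 lines, with log2 fold changes of 0.99 ± 0.34 and 0.89 ± 0.17 (adjusted p = 0.597 for both, edgeR). Of the 7 ductal markers, 5 had a log2 fold change below 0, led by Krt7, Krt19 and Krt8 at -0.84, -0.55 and -0.46 (adjusted p = 0.597 for each, edgeR). Sox9 at 0.34 (adjusted p = 0.597, edgeR), higher in all 3 lines, and Cdh1 at 0.16 (adjusted p = 0.763) lay above 0. Of the 3 mesenchymal genes, Vim was at -0.49 ± 0.14 (adjusted p = 0.597, edgeR), lower in all 3 lines, and Cdh2 and Fn1 were at -0.04 and 0.21. Depth was lower in every treated sample. Their part in the mitochondrial values was not tested.

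**Figure D3:**
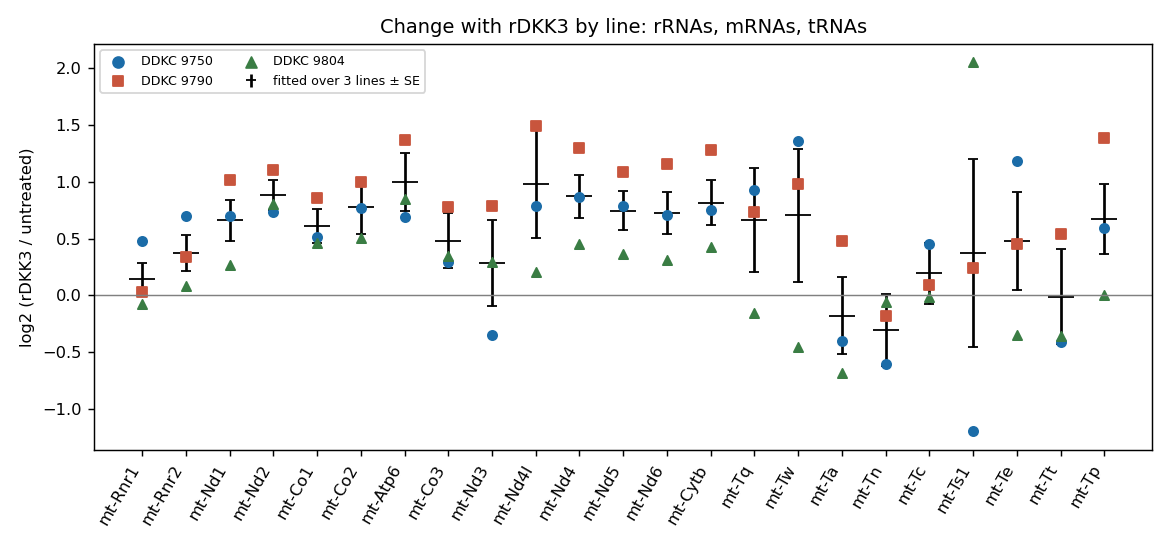
Log2 of the rDKK3 to untreated ratio for the 23 members tested, by line (coloured symbols, log2 CPM with a prior count), with the fitted value over 3 lines ± SE in black. Points of the 7 abundant mRNAs lie above 0 in all lines, highest in line DDKC_9790, and the tRNAs scatter on both sides of 0.

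The size of the difference varied by line. For the 7 mRNAs not wholly covered, the log2 differences ranged from 0.51 to 0.87 in line DDKC_9750, from 0.86 to 1.30 in line DDKC_9790 and from 0.26 to 0.80 in line DDKC_9804. In line DDKC_9790 each of the 7 was larger than in the other lines. The rRNAs followed another order, with mt-Rnr2 at 0.70 in line DDKC_9750, 0.34 in line DDKC_9790 and 0.08 in line DDKC_9804. A test of a line-dependent response over the 12 libraries (edgeR, line by treatment interaction) called 9 of 21 members, where 49.3% of all genes were called. With repeat libraries it compares single cultures. DESeq2 called 8 of 21 members and 3678 of 15165 genes, and without line DDKC_9804 edgeR called 5 of 20 members and 3861 of 14728 genes, so nothing particular to the members is read from these counts.

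Between lines, edgeR's test on the summed samples called 2 of 23 members, where 32.2% of genes were called. One was mt-Nd2 (adjusted p = 0.0123), which was highest in line DDKC_9804 and lowest in line DDKC_9790 under both conditions. Its ratio to mt-Nd1 per length was 0.49 and 0.50 in line DDKC_9750, 0.41 and 0.44 in line DDKC_9790 and 0.82 and 1.19 in line DDKC_9804, untreated and with rDKK3. The other was mt-Tc, the cysteine tRNA (adjusted p = 0.0282), with 3.02, 2.99 and 0.968 CPM in untreated lines DDKC_9750, DDKC_9790 and DDKC_9804 and 4.14, 3.33 and 0.982 CPM with rDKK3. Line DDKC_9804 was the low one for mt-Tc and the high one for mt-Nd2. Neither call held without line DDKC_9790 (adjusted p = 0.126 for mt-Nd2 and 0.0871 for mt-Tc, edgeR) or without line DDKC_9804 (0.0585 and 0.889), and mt-Tc was not called in untreated libraries alone (0.0827).

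The make-up of the 7 abundant mRNAs also differed in line DDKC_9790. mt-Co1 took 66.1% of their counts in untreated and 61.3% in treated cells of that line, and between 44.4% and 48.7% in the other samples. mt-Cytb took 9.23% and 11.5% in line DDKC_9790 and between 16.5% and 18.5% elsewhere. By gene, neither mt-Co1 (adjusted p = 0.0799) nor mt-Cytb (adjusted p = 0.108) passed edgeR's test between lines.

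**Figure D4:**
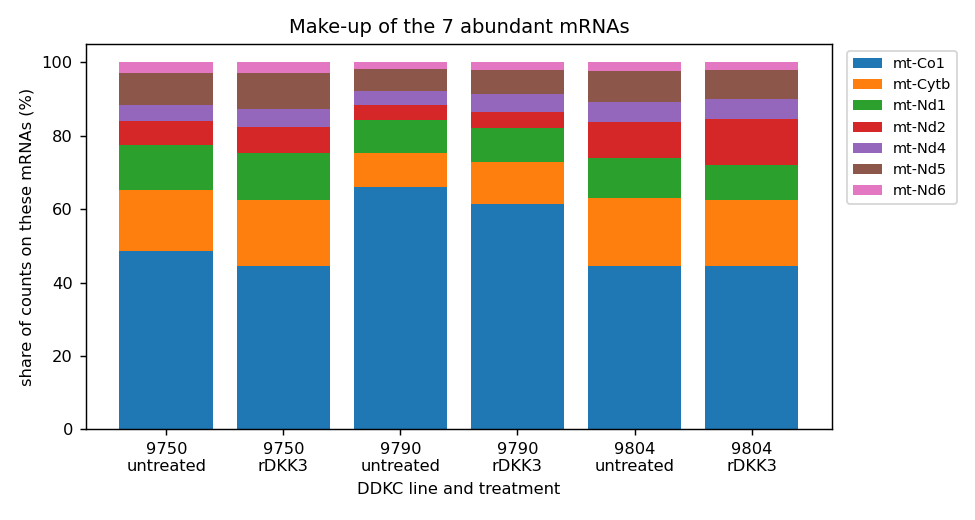
Share (%) of each of the 7 abundant mRNAs in their summed counts, as stacked bars for each line and treatment, each bar adding to all of their counts. The mt-Co1 segment is 61.3% to 66.1% in line DDKC_9790 and 44.4% to 48.7% in lines DDKC_9750 and DDKC_9804.

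The 22 tRNAs had 2377 counts in all, of which the 8 on the minus strand held 87.1%. A count here is a fragment that touches a tRNA gene and no other gene on that strand, and need not be a whole mature tRNA. mt-Tp (proline) had the most, 910 counts, followed by mt-Ta (alanine) with 345, mt-Tc with 310, mt-Tn (asparagine) with 183 and mt-Te (glutamate) with 140. mt-Tf had 0 counts, which allows up to 0.0231 CPM over all libraries. mt-Td, mt-Tk and mt-Tg also had 0 counts, but they lie wholly inside the chromosome 1 copy, so this 0 sets no limit on their level. With rDKK3, 9 tRNAs passed the filter on low counts, and their log2 fold changes ran from -0.30 for mt-Tn to 0.70 for mt-Tw, with none at an unadjusted p under 0.05. Between these, mt-Tq (glutamine) was at 0.66, mt-Tc at 0.20, mt-Tt (threonine) at -0.01 and mt-Ta at -0.18, and mt-Te and mt-Ts1 (serine) were at 0.48 and 0.37. Without a line, mt-Te ranged from 0.0488 to 0.909 and mt-Tw from 0.385 to 1.36. For mt-Tc the range was 0.0467 to 0.272 and for mt-Tq 0.458 to 0.932. The values of mt-Tn, mt-Tw, mt-Te and mt-Ts1 are uncertain, since all of their windows occur in the nuclear genome. mt-Tp had 9.37, 3.11 and 5.40 CPM untreated and 14.1, 8.64 and 5.57 CPM with rDKK3, a log2 fold change of 0.67 ± 0.31 (adjusted p = 0.628, edgeR), which was 0.32 without line DDKC_9790 and 0.99 without line DDKC_9804.

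Some tRNAs also separated the 2 library series. The 4 below are shown because 3 of them had far lower CPM in the higher series and mt-Tp did not. They are written on the gene's own strand with the anticodon in capitals (mt-Tl1, chrM:2676-2750, plus; mt-Ta, chrM:5018-5086, minus; mt-Tn, chrM:5089-5159, minus; mt-Tp, chrM:15356-15422, minus):
mt-Tl1: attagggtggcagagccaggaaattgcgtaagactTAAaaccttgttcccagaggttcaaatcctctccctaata
mt-Ta: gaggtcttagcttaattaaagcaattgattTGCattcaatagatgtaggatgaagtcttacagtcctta
mt-Tn: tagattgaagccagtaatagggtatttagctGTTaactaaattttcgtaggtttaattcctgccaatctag
mt-Tp: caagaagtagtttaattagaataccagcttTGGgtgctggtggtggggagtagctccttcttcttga

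mt-Tl1 (leucine) had 42 counts in the 6 lower libraries and 0 in the 6 higher ones, at least 25.9-fold lower against a floor of 3 counts over the group. mt-Ta ranged from 2.79 to 8.49 CPM in the lower and from 0.328 to 1.21 CPM in the higher series, and mt-Tn from 1.72 to 5.25 and from 0.178 to 0.793 CPM. The series did not overlap for either gene, and the values of mt-Tn are uncertain because of its nuclear copy. mt-Tp ranged from 3.06 to 13.3 CPM in the lower and from 3.14 to 14.6 CPM in the higher series. mt-Tr, mt-Th, mt-Ts2, mt-Tl2 and mt-Tv also had counts only in the lower series, between 2 and 25 each. The 3 counts of mt-Tl2 and 2 of mt-Tv did not exceed the floor and show no difference between series. All windows of mt-Th occur in the nuclear genome and mt-Tr lies wholly inside the chromosome 1 copy, so their values are uncertain. Others went the other way in pooled CPM, with mt-Ts1 2.21-fold, mt-Ty 1.92-fold, mt-Tw 1.53-fold and mt-Ti 1.32-fold higher in the higher series. These 4 did not pass the filter on low counts in the test of the series, and mt-Ts1, mt-Ty and mt-Tw occur wholly in the nuclear genome.

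In edgeR's test of the series over the 12 libraries, paired within line and condition, 16 of 21 members were called. The 3 higher in the higher series were mt-Co2, mt-Co3 and mt-Atp6, at log2 fold changes of 2.05, 1.90 and 1.62, all inside the chromosome 1 copy, where 10.4% of all genes were called higher. The 13 lower ones included mt-Tl1, mt-Ta (-3.18), mt-Tn (-2.75) and mt-Tc (-1.07), where 13.4% of all genes were called lower. The other 9 were both rRNAs and the 7 mRNAs not wholly inside the copy, with small differences between -0.08 (mt-Co1) and -0.19 (mt-Nd5).

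By class, the mRNA share was lower in the higher series in 6 of 6 pairs, by 0.14 ± 0.02 on the log2 scale (SD, n = 6 pairs), the rRNA share in 6 of 6 by 0.13 ± 0.02 and the tRNA share in 6 of 6 by 0.87 ± 0.19. The two-sided exact sign-flip permutation test gave p = 0.0312 for each, the smallest value 6 pairs allow. The 16 annotated genes of the nuclear copies had 591 counts in the lower and 4261 in the higher series, 3.90-fold more in CPM. The 6 mRNAs inside the copy had 231 and 1312 counts, 3.07-fold more in CPM. What differed between the series is not given in the labels. Each line and condition holds 1 library of each, so the series is balanced over treatment.

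**Figure D5:**
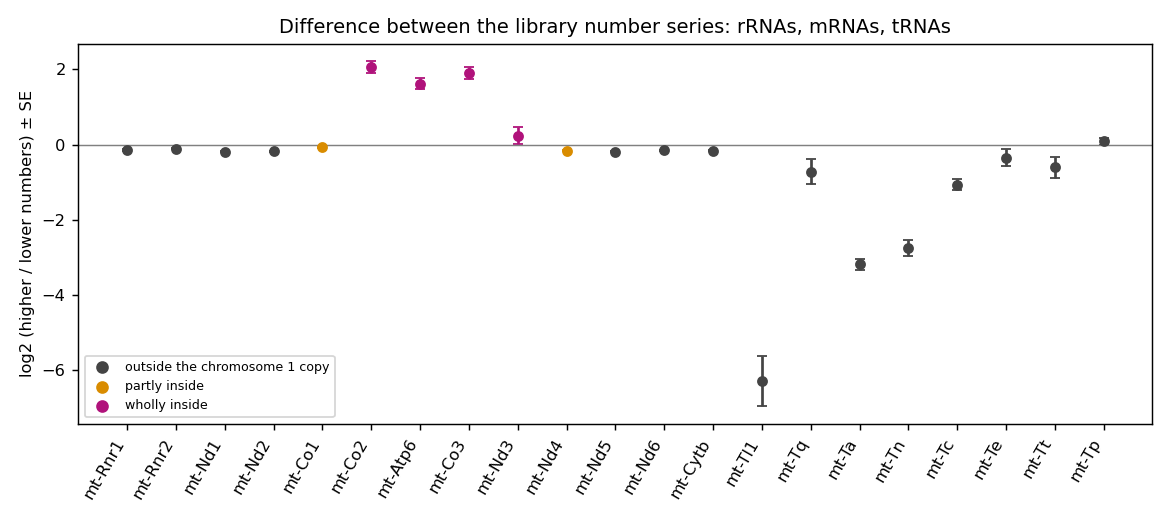
Log2 ratio of the higher to the lower library number series ± SE for the 21 members tested over 12 libraries, coloured by position relative to the chromosome 1 copy. mt-Co2, mt-Atp6 and mt-Co3 lie between 1.62 and 2.05, mt-Ta and mt-Tn at -3.18 and -2.75, mt-Tl1 (0 counts in the higher series) lower still at a value that depends on the prior count, and the 7 abundant mRNAs and both rRNAs just under 0.

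Within each series the treatment difference of the mRNAs was of like size. The mean log2 difference of the mRNA share was 0.72 in the lower and 0.71 in the higher series. The libraries of a pair may be repeats of 1 culture, so the series are not independent replicates.

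Nuclear genes that serve the mitochondrial genome were read from fixed lists. Of 9 genes of mitochondrial transcription, including the polymerase Polrmt and the packaging factor Tfam, none passed edgeR's test at an adjusted p under 0.05 or an unadjusted p under 0.05, with a median log2 fold change of -0.02. The largest were Mterf1b at -0.99 ± 0.54 and Tefm, an elongation factor, at -0.36 ± 0.19. Of 12 genes of mtDNA replication and upkeep none passed either, with a median of 0.04, and Top1mt (0.28) and Polg2 (-0.25) were the largest.

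Of 19 genes of mitochondrial RNA processing, polyadenylation and decay, 0 passed the adjusted test and 1, Hsd17b10, a subunit of mitochondrial RNase P, had an unadjusted p under 0.05. It had 93.9, 84.0 and 63.9 CPM untreated and 71.3, 65.2 and 50.1 CPM with rDKK3, lower in 3 of 3 lines, with a log2 fold change of -0.40 ± 0.10 (adjusted p = 0.597, edgeR). The list's median was 0.07, and Fastkd1 was the largest member at 0.50. Of 19 genes of rRNA and tRNA modification none passed either test (median 0.02, Rpusd3 at 0.54 and Cdk5rap1 at -0.30). Of 15 translation factors 0 passed the adjusted test and 1, Mtif3, had an unadjusted p under 0.05 at -0.38 (median -0.04, Mtrf1 at -0.22).

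Of 9 regulators of mitochondrial biogenesis 0 passed the adjusted test and 2, Ppargc1b and Pprc1, had an unadjusted p under 0.05. Ppargc1b, a transcriptional coactivator, had 1.56, 0 and 0.0553 CPM untreated and 3.73, 0.215 and 0.491 CPM with rDKK3, a fitted log2 fold change of 1.93 ± 0.65 (adjusted p = 0.597, edgeR) from 94 counts in all. Its relative Pprc1 gave 0.41 ± 0.16 (adjusted p = 0.601, edgeR). The median of this list was 0.08, against -0.01 over all genes tested and 0.66 over the mitochondrial members.

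In the edgeR fit of 12 libraries with the line, which may count 1 culture more than once, 9 of the 83 genes of these 6 lists were called. Ppargc1b, Pprc1 and Rpusd3 were higher, where 7.95% of all genes were called higher. Hsd17b10 (adjusted p = 0.000131), Mtif3 (adjusted p = 0.00103), Mrpl58, Tefm, Cdk5rap1 and Gabpa were lower, where 10.1% of all genes were called lower.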

How the data were processed

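RNA of DDKC_9750, DDKC_9790 and DDKC_9804 cells, untreated or with rDKK3, was measured in 12 libraries. Per the labels' processing notes and the study's methods, the authors aligned 50-base read pairs with STAR 2.7.9a to GRCm39 and assigned them by strand to GENCODE exons with GenomicAlignments in union mode, in which a fragment over more than 1 gene is not counted. They deposited raw counts per gene. DESeq2 1.38.0 was named for their tests, and the model formula was not given in the sources used here.

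An allele of the genotype and a marker gene are not reported here. Members and gene lists were chosen with earlier results of these data known. Counts were summed over the 2 libraries of each line and condition and tested with edgeR 4.0.16 (quasi-likelihood, TMM, line and treatment in the model, edgeR's filter on low counts by condition, R 4.3.3). Adjustment was by Benjamini-Hochberg over all genes, with a threshold of 0.05. Lines pair treated with untreated samples, and their deviations correlated at 0.80, 0.87 and 0.79. Log2 differences by line used a prior count of 2, and shares were compared by exact sign-flip tests over lines or pairs. Line differences were tested in the same fit. Series and line-dependent responses were tested over 12 libraries. The mitochondrial genome was aligned to GRCm39 with BLAST 2.17.0, keeping nuclear copies of at least 200 bases and 90% identity. Named were all mRNAs and rRNAs, the tRNAs that passed the filter, and from each nuclear list its genes past the threshold or else the 2 with the largest absolute log2 fold change, with other named genes chosen after their values were seen. Alternatives covered DESeq2 1.42.0, RLE size factors, library sizes from nuclear genes, the filter, each series alone, single libraries, fits without the line, other denominators and leaving out each line. On simulated counts of 15214 genes, the summed fit of treatment recovered 78 of 100 genes changed by a log2 fold of 1. It recovered 100 of 100 changed by 2, with 5 false calls. On the real counts the same fit called 1 of 15214 genes. Its recovery of real differences, including those of unequal size between lines, was not tested. A floor of 3 counts was 0.083 to 0.303 CPM in the summed samples.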

Additional observations from a re-analysis of the deposited data

Results flagged for a closer look

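A test of a line-dependent response (edgeR's line by treatment interaction over 12 libraries) called 9 of 21 members, where 49.3% of all genes were called. Nothing particular to the members is read from this count. The adjusted p was 0.0087 for mt-Rnr1, 0.00186 for mt-Rnr2, 0.0075 for mt-Nd1, 0.0020 for mt-Co1, 0.00231 for mt-Nd4, 0.0096 for mt-Nd5, 0.0017 for mt-Nd6, 0.00153 for mt-Cytb and 0.000627 for mt-Tp. In mt-Nd1, mt-Co1, mt-Nd4, mt-Nd5, mt-Nd6, mt-Cytb and mt-Tp the log2 difference was largest in line DDKC_9790. In mt-Rnr1 and mt-Rnr2 it was largest in line DDKC_9750. Without line DDKC_9750 the adjusted p was 0.746 for mt-Rnr1 and 0.170 for mt-Rnr2, without line DDKC_9790 it was 0.498 for mt-Co1, and without line DDKC_9804 it was 0.235 for mt-Nd1, 0.0606 for mt-Nd4, 0.240 for mt-Nd5 and 0.0523 for mt-Nd6. With DESeq2 it was 0.0733 for mt-Tp. The calls over all genes also fell, from 7474 of 15165 to 3678 of 15165 with DESeq2 (8 of 21 members), 3903 of 14611 without line DDKC_9750 (7 of 20 members) and 3861 of 14728 without line DDKC_9804 (5 of 20 members). The libraries of a pair may be repeats of 1 culture, so these tests compare single cultures of the lines.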

How the results depend on the processing

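The mean treatment difference of the class shares kept its direction under both other denominators, in each series alone and without each line. Dropping the pairing alters the p-value only and cannot alter this mean. Without a line, the difference ranged from 0.566 to 0.829 (log2) for the mRNA share, from 0.205 (without line DDKC_9750) to 0.480 for the rRNA share and from 0.214 (without line DDKC_9790) to 0.541 for the tRNA share. In the lower series alone the tRNA difference was 0.211 (exact permutation p = 0.50), with line DDKC_9804 lower with rDKK3. The count of members changed with rDKK3, 0 in the edgeR fit of summed counts, was 9 with 12 libraries and the line as replicate block, 11 with the series added, 5 with DESeq2 and 1 without a filter on low counts. It was 0 in every other setting, including both fits without the replicate block and each fit without a line. Members different between lines numbered 10 with 12 libraries, 11 with untreated libraries only, 4 with DESeq2 and 4 with no filter, and from 0 to 5 without a line (0 without line DDKC_9790 or DDKC_9804). Without line DDKC_9790 the adjusted p of mt-Nd2 was 0.126, and without line DDKC_9804 it was 0.0585. That of mt-Tc was 0.0871 and 0.889 without these lines and 0.0827 with untreated libraries only. For the series, 9 members were called with at least 10 counts in every sample, where fewer members were tested, and 15 to 17 without a line. Without a filter on low counts, 22 of 33 members were called, 6 of them higher and 16 lower in the higher series. Without a line only 4 pairs remain, which cannot pass the exact test, and the differences were -0.14 to -0.13 (mRNA), -0.13 to -0.12 (rRNA) and -0.92 to -0.79 (tRNA). Over all genes, the 1 call with rDKK3 became 2744 with 12 libraries and the line, 3124 with the series added, 96 with DESeq2, 90 without a filter and between 0 and 6 otherwise. The 4899 calls between lines became 11790 with 12 libraries, 12014 with untreated libraries only and 1502 without line DDKC_9790, and the 7474 line-dependent calls became 3678 with DESeq2, 3903 without line DDKC_9750 and 3861 without line DDKC_9804. Line-dependent responses were called for 5 members without line DDKC_9804, and for up to 9 without another line.

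Of 302 alternative values of single log2 fold changes with rDKK3, 264 kept direction and side of the threshold, 26 passed it and 12 changed sign. mt-Nd3 was -0.242 with the lower series only and from -0.00536 (without line DDKC_9790) to 0.584 (without line DDKC_9750). Without a line, mt-Rnr1 ranged from -0.0218 to 0.248, mt-Ta from -0.556 to 0.0658, mt-Ts1 from -0.306 to 0.989 and mt-Tt from -0.450 to 0.247. mt-Tn was 0.241 with the higher series only. mt-Tt was 0.0750 and 0.0585 without the replicate block (12 libraries, summed), 0.318 with the lower series only and 0.00819 with the series in the model. The causes were not tested. The tRNAs and the mRNAs inside the chromosome 1 copy had at most 910 counts each, which limits their values.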

Other observations

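Ratios between members of the same sample do not depend on the library total. The ratio per length of mt-Nd4 to mt-Nd1 was 0.234, 0.296 and 0.347 in untreated cells of lines DDKC_9750, DDKC_9790 and DDKC_9804 and 0.262, 0.360 and 0.394 with rDKK3, higher in 3 of 3 lines. The ratio of mt-Cytb to mt-Nd1 was 1.12, 0.856 and 1.41 untreated and 1.16, 1.03 and 1.58 with rDKK3, also higher in 3 of 3 lines. The ratio of mt-Co1 to mt-Nd1 was 2.44, 4.53 and 2.50 untreated and 2.14, 4.06 and 2.86 with rDKK3, lower in 2 lines and higher in 1. The values of mt-Nd4 and mt-Co1 are uncertain, since both share bases with the chromosome 1 copy. The ratio of mt-Rnr2 to mt-Nd1 was 0.316, 0.535 and 0.311 untreated and 0.315, 0.334 and 0.274 with rDKK3, so the conditions overlap and untreated line DDKC_9790 stood above the other 5 samples. The ratio of mt-Rnr2 to mt-Rnr1 was 1.81, 1.75 and 2.03 untreated and 2.12, 2.17 and 2.26 with rDKK3, without overlap. These ratios were chosen with values known and were not tested.

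A second nuclear copy, on chromosome 2, aligned with chrM:4441-7699 at 97.362% identity. Its annotated gene Gm13340, which lies over the mt-Co1 part, had 175 counts in the lower and 1720 in the higher library series. The smallest and largest counts per library were 21 and 43 in the lower series and 158 and 454 in the higher one, without overlap.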
